A study of Mus musculus with 9 samples.

Results

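Actomyosin and cytoskeletal genes were described in fibroblastic reticular cells (FRCs), the contractile fibroblasts that form the scaffold of lymph nodes. The set was a list of 37 gene symbols for actins, tropomyosins, calponins, myosin II chains, crosslinkers, adhesion proteins and intermediate filaments, given by name. The rule sets no threshold on a measured value, though the list was drawn up with earlier results of these data known. The array annotation gave 84 probes to 35 of the 37 genes. Of these, 58 probes of 31 genes were tested, among 16577 tested probes of 8819 genes in all. Each gene was read from its tested probe with the highest mean, on a scale of normalized log2 intensity on which a difference of 1 is a 2-fold difference.

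The cells came from the brachial lymph nodes of female C57BL/6 mice, with the FRCs of 2 nodes pooled per animal and 1 Illumina bead array per pool. There were 3 arrays for nodes draining a tumour at day 11, 3 for nodes draining a tumour at day 4 and 3 for nodes draining a PBS injection. The labels give no day for the PBS group and no name for the tumour, and the sources used here do not describe the isolation of the FRCs. RNA was amplified as whole transcriptome before labelling, per the labels. Time and tumour therefore cannot be told apart against PBS. The same 3 PBS arrays stand in both tumour comparisons, so changes from PBS at day 11 and day 4 are not independent of each other.

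Per array, between 9606 and 14727 probes were detected at day 11, between 15198 and 17627 at day 4 and between 11529 and 16489 in PBS. All 21 listed FRC markers, among them Pdpn, Pdgfra and Ccl19, had a tested probe, while none of the 6 melanocyte markers did. The array with the weakest mean correlation to its own group was PBS replicate 1, at 0.783. Several members of the cytoskeletal set stood apart on it, as given below. The PBS arrays as a group correlated less (0.783 to 0.817) than the day 4 arrays (0.850 to 0.858) and the day 11 arrays (0.914 to 0.924).

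FRCs hold the node in tension by actomyosin contraction. Myosin II pulls on actin filaments when its regulatory light chain is phosphorylated, which myosin light chain kinase carries out. Podoplanin, the FRC surface protein, is known to drive this contraction through ezrin and moesin, and its binding to CLEC-2 on dendritic cells lets the network relax and stretch as a node swells. Many genes of the contractile apparatus are targets of serum response factor, which binds a DNA element called the CArG box.

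The CArG box was searched on both strands of the RefSeq promoters of mouse build GRCm38.p6, each 300 bases long with 250 before and 50 after the start of transcription. Of the 37 members 32 had a promoter in that table, and 6 of these, 18.75%, held a CArG box, against 1.81% of all 27025 genes with a promoter. The 6 genes were Actg1, Cnn2, Lima1, Myl6, Myl9 and Vcl. Actb, Actg2, Myh11, Pxn and Tagln had no promoter in that table and were not searched. Only the exact form was counted, CC, then 6 letters of A or T, then GG. A box that departs from it or lies outside the window was not seen. The promoters of 3 of them that were measured on the array are shown with the box in capitals, since Vcl and Cnn2 were among the members with the lowest p-values and Myl9 encodes the light chain that switches myosin II on. All 3 are on the plus strand, at chr14:20929148-20929447 for Vcl, chr10:79988350-79988649 for Cnn2 and chr2:156775214-156775513 for Myl9.
Vcl: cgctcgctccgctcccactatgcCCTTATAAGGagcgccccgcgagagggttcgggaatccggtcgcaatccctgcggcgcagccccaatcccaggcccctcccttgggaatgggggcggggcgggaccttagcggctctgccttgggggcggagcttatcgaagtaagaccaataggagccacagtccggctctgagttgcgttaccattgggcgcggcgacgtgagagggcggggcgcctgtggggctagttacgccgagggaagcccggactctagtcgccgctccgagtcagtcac
Cnn2: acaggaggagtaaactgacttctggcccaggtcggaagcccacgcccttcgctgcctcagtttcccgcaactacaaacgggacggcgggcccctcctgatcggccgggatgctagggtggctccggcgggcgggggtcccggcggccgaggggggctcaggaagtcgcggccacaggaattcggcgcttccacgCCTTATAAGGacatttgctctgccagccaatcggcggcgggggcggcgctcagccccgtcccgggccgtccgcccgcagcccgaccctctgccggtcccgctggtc
Myl9: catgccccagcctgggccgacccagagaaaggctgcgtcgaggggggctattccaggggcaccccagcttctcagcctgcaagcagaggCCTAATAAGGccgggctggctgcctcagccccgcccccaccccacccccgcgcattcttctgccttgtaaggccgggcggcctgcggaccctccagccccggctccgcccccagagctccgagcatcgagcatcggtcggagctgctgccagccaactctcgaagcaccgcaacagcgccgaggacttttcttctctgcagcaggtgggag

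The box begins 227 bases before the start in Vcl, 56 in Cnn2 and 161 in Myl9, and Vcl and Cnn2 share its letters. A second element, MCAT (CATTCC on either strand), which TEAD factors bind, was in the promoters of 13 of the 32 members, 40.6%, against 16.6% of all genes. The 13 were Acta2, Actn4, Arpc2, Cald1, Flna, Flnc, Lmod1, Myh10, Mylk, Pfn1, Tagln2, Tpm1 and Vcl. The letters of the 2 elements can overlap by their end bases. Only 1 member, Vcl, had both in a promoter, and they did not overlap there. A match of letters is a description of these windows and does not show that a factor binds there.

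The first comparison asked how the cytoskeletal genes of FRCs stood at day 4 of tumour drainage, against PBS. No member passed the threshold (limma, Benjamini-Hochberg adjusted p under 0.05 over all tested probes), with 0 higher and 0 lower, and 0% of all 8819 genes were called. At an unadjusted p under 0.05, 1 member was higher and 2 were lower, 3 of 31, against 4.72% of all genes higher and 3.28% lower, 7.99% in all. The 3 were the adhesion protein gene Vcl, which was higher, and the crosslinker genes Actn4 and Flnc, which were lower. The 3 day 4 arrays did not overlap the 3 PBS arrays in 8 members, 6 higher and 2 lower, against 6.23% of all genes higher and 4.31% lower, 10.5% in all. The 6 were Acta2, Cald1, Tpm1, Tpm2, Vcl and Vim, and the 2 were Actn4 and Myh9. Over the 31 members the median log2 change was 0.10 with 20 higher, against a median of 0.04 over all genes, of which 53.8% were higher.

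The second comparison asked how the same genes stood at day 11, against PBS. Again no member passed (limma, 0 higher and 0 lower), while 1 of all genes did, 0.0113%. At an unadjusted p under 0.05, Vim and Pfn1 were higher and Actn4 was lower, 3 of 31, against 6.18% of all genes higher and 4.07% lower, 10.3% in all. The groups did not overlap in 9 members, 7 higher and 2 lower, against 10.9% of all genes higher and 7.26% lower, 18.2% in all. The 7 were Cnn2, Flnc, Pfn1, Tpm1, Tpm2, Vcl and Vim, and Actn4 and Myh9 again lay below PBS. The median log2 change was 0.15 with 24 of 31 higher, against a median of 0.05 over all genes, of which 54.1% were higher. Scaling the arrays to their 75th percentile in place of quantile normalization left 19 of 31 higher and a median of 0.072. Leaving out day 11 replicate 3 left 20 of 31 and 0.069. Without PBS replicate 1 it was 19 of 31 and 0.13, and without PBS replicate 3 it was 18 of 31 and 0.12.

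The third comparison set day 11 against day 4. No member passed (limma, 0 higher and 0 lower), against 0.0113% of all genes. At an unadjusted p under 0.05 only Flnc was higher and none was lower, against 3.11% of all genes higher and 3.35% lower, 6.45% in all. The groups did not overlap in 4 members, with Flnc and Zyx higher and Tpm1 and Tpm2 lower, against 7.9% of all genes higher and 7.6% lower, 15.5% in all. The median log2 change was -0.06 with 13 of 31 higher, against 0.02 over all genes, of which 51.5% were higher. Counts at the unadjusted threshold moved with single arrays. Without day 4 replicate 2, 4 members passed it for day 11 against day 4, and without day 4 replicate 3, 1 member passed it at day 4 against PBS.

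**Figure D1:**
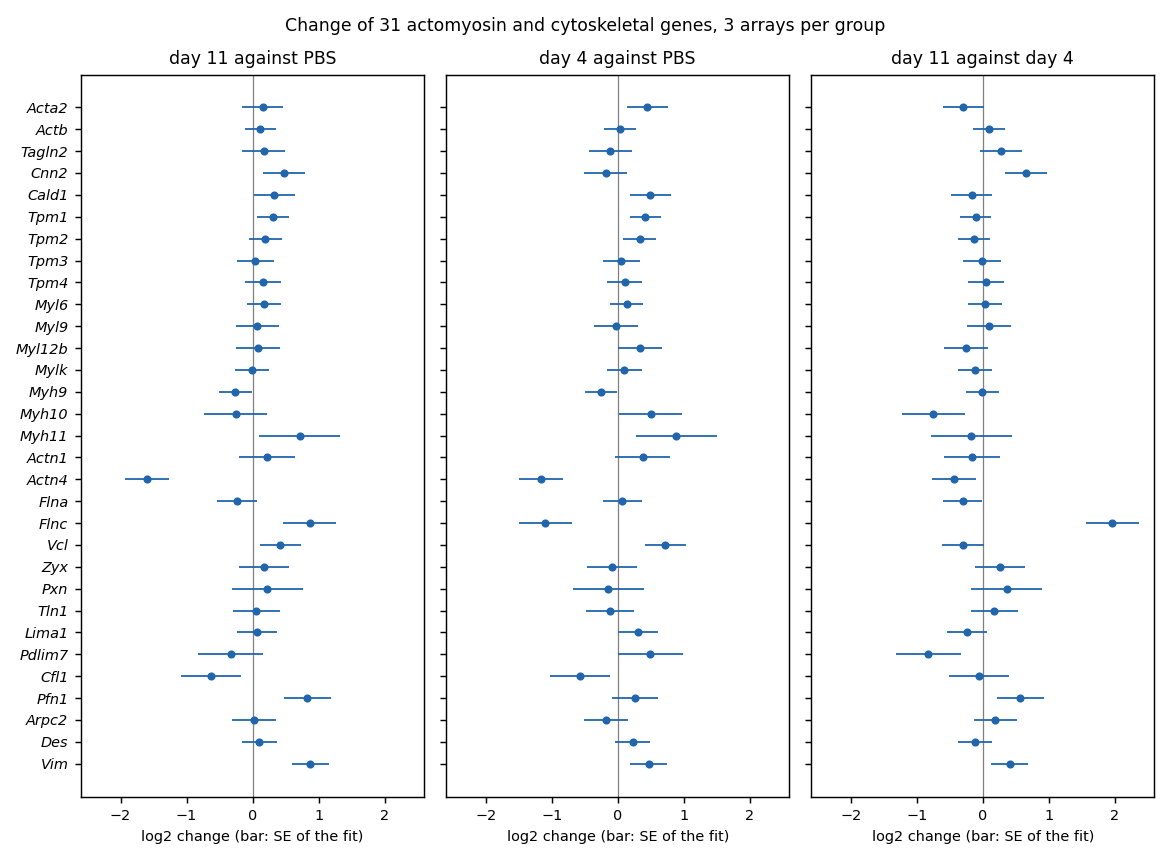
Log2 change (x axis, log2 units) of each of the 31 tested members, with genes in order of their role down the page, for day 11 against PBS, day 4 against PBS and day 11 against day 4. Points are the fitted change, bars its SE, with 3 arrays per group. Most points lie within 0.5 of 0. Actn4 lies at -1.60 and -1.17 against PBS, and Flnc at 1.96 for day 11 against day 4.

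Among the actins, Acta2 encodes the smooth muscle actin that marks contractile fibroblasts. Acta2 was 10.08, 10.24 and 10.72 on the day 11 arrays, 10.59, 10.54 and 10.78 on the day 4 arrays and 10.54, 10.34 and 9.70 on the PBS arrays (log2 intensity). The lowest day 4 value lay just above the highest PBS value, by less than the spread within either group, and the day 11 arrays overlapped both. The log2 change was 0.45 ± 0.31 (SE) at day 4 against PBS, with a 95% interval of -0.24 to 1.14 (limma adjusted p = 0.777). It was 0.15 ± 0.31 at day 11 against PBS (limma adjusted p = 0.889) and -0.29 ± 0.31 for day 11 against day 4 (limma adjusted p = 0.913). The other 3 tested Acta2 probes were also higher against PBS, with changes of 0.41, 0.43 and 1.14 at day 4 and of 0.42, 0.54 and 0.96 at day 11.

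Actb encodes the cytoplasmic beta actin found in all cells. Actb was 12.46, 12.37 and 12.15 at day 11, 12.18, 12.29 and 12.24 at day 4 and 12.24, 12.17 and 12.22 in PBS. These values lay close together in every group, with SDs of 0.16 at day 11, 0.05 at day 4 and 0.03 in PBS. All 5 of its probes gave changes between -0.08 and 0.15 in every comparison. The 95% interval of its change at day 11 against PBS was -0.42 to 0.66, since the fit shares its estimate of spread with other genes. Actg1, the cytoplasmic gamma actin, had no probe named in the annotation, and Actg2, the enteric smooth muscle actin, was detected on 1 of 9 arrays and was not tested.

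The smooth muscle genes Tagln, Cnn1 and Lmod1 were not tested either. Tagln encodes transgelin, an actin-bundling protein of smooth muscle, and its 2 probes were detected on 1 and 2 of the 9 arrays. One ranged from 4.71 to 6.58 and the other from 4.83 to 6.16, with no day 11 array detected. Cnn1, the smooth muscle calponin, ranged from 4.59 to 5.83 and Lmod1, which nucleates actin filaments in smooth muscle, from 4.62 to 5.48. Neither was detected on any array, so for these genes no difference between groups could have been seen. Cnn3, a further calponin, had no probe named in the annotation.

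The tropomyosins Tpm1 and Tpm2, which lie along actin filaments and govern the access of myosin, were higher on every tumour array than on every PBS array. Tpm1 was 9.57, 9.59 and 9.63 at day 11, 9.65, 9.75 and 9.72 at day 4 and 9.43, 9.29 and 9.14 in PBS. Tpm2 was 9.91, 9.90 and 9.96 at day 11, 10.12, 10.09 and 9.97 at day 4 and 9.75, 9.90 and 9.54 in PBS. The groups stood in the same order for both genes, day 4 above day 11 above PBS, with no overlap between any 2 groups. For Tpm2 the nearest day 11 and PBS arrays differed only past the second decimal. The log2 change of Tpm1 was 0.42 ± 0.24 at day 4 (limma adjusted p = 0.705) and 0.31 ± 0.24 at day 11 (limma adjusted p = 0.674). For Tpm2 it was 0.33 ± 0.24 at day 4 (limma adjusted p = 0.796) and 0.19 ± 0.24 at day 11 (limma adjusted p = 0.810). The 2 other Tpm1 probes gave 0.62 and 0.66 at day 4 and 0.31 and 0.46 at day 11. Tpm3 and Tpm4, the tropomyosins of non-muscle filaments, had changes from -0.01 to 0.15 across the 3 comparisons. Their other probes ranged more widely, with Tpm3 at 0.31 at day 4 against PBS and -0.31 for day 11 against day 4, and Tpm4 at 0.48 at day 11 against PBS.

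Cald1 encodes caldesmon, which inhibits actomyosin and is made in smooth muscle and non-muscle forms. It had a log2 change of 0.50 ± 0.31 at day 4 (limma adjusted p = 0.738) and 0.33 ± 0.31 at day 11 against PBS (limma adjusted p = 0.733). All 5 tested Cald1 probes were higher at day 4, with changes of 0.25 at the least and 1.02 at the most. The day 11 probes parted, with 4 higher by 0.33 or more and 1 lower at -0.59. Cnn2, a calponin of non-muscle cells, was 7.19, 7.20 and 7.29 at day 11, 6.26, 7.20 and 6.24 at day 4 and 6.49, 6.75 and 7.01 in PBS. The day 11 values were close together and above PBS, while day 4 replicate 2 lay level with them and the other 2 day 4 arrays lay below every PBS array. Its change was 0.47 ± 0.32 at day 11 against PBS (limma adjusted p = 0.621) and 0.66 ± 0.32 for day 11 against day 4 (limma adjusted p = 0.781). Its second probe had -0.04 at day 11 and -1.06 at day 4 against PBS, and 1.02 for day 11 against day 4. Tagln2, a transgelin of many cell types, had changes of 0.17 ± 0.32 at day 11 and -0.11 ± 0.32 at day 4 against PBS.

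**Figure D2:**
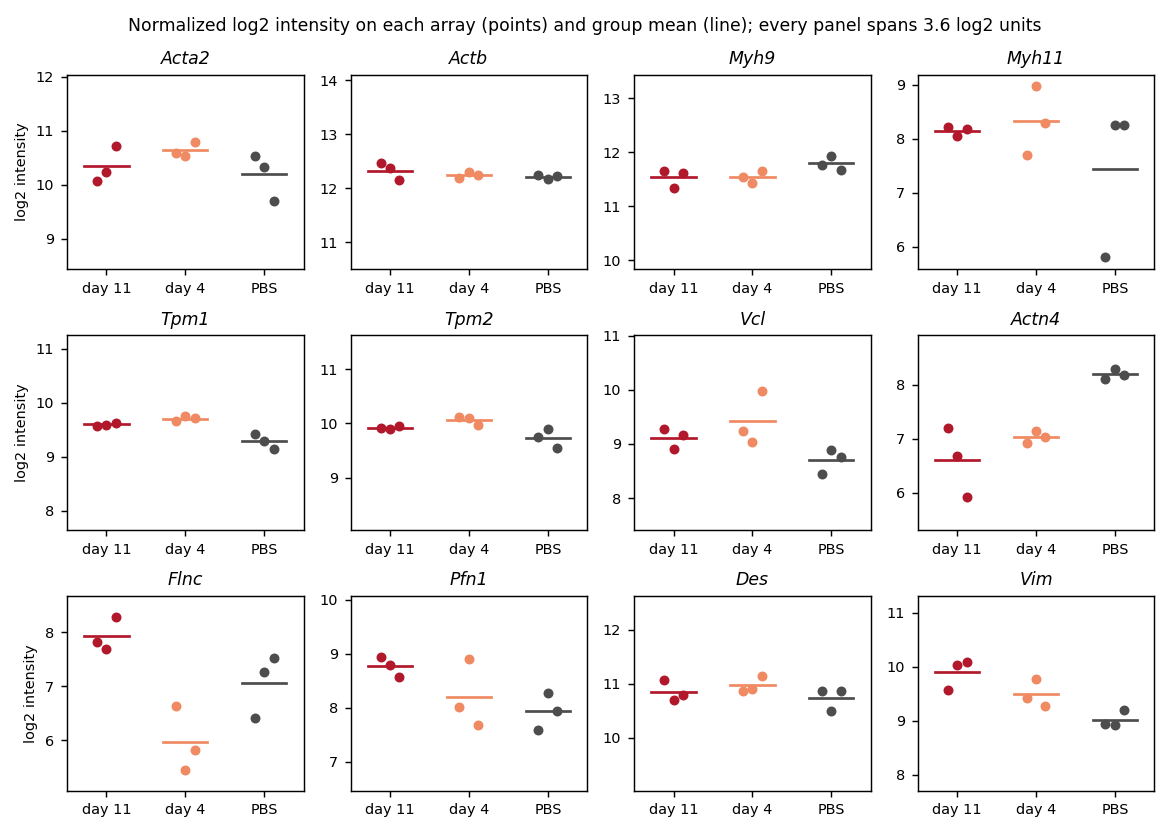
Normalized log2 intensity (y axis) of 12 members on each array, for day 11, day 4 and PBS from left to right (x axis). Points are arrays and lines are group means, and every panel spans the same number of log2 units. Actn4 was 5.93 to 7.20 at day 11 and 6.91 to 7.15 at day 4, below 8.11 to 8.29 in PBS, and Vim was 9.57 to 10.10 at day 11 and 9.28 to 9.78 at day 4, above 8.91 to 9.21 in PBS. Myh11 shows 1 PBS array at 5.80, far below the others.

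Of the myosin II genes, Myh9 encodes the non-muscle heavy chain IIA, the main motor of contractile fibroblasts. Myh9 was 11.64, 11.34 and 11.61 at day 11, 11.53, 11.43 and 11.65 at day 4 and 11.76, 11.93 and 11.67 in PBS. Each tumour array lay below each PBS array, with the nearest day 4 and PBS arrays almost level. The log2 change was -0.26 ± 0.25 at day 11 against PBS (limma adjusted p = 0.738) and -0.25 ± 0.25 at day 4 (limma adjusted p = 0.857). Myh10, the IIB chain, was detected on 1 day 11 array, 3 day 4 arrays and 1 PBS array, and its change for day 11 against day 4 was -0.75 ± 0.48 (limma adjusted p = 0.829).

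Myh11 encodes the smooth muscle heavy chain. Myh11 was 8.22, 8.05 and 8.18 at day 11, 7.70, 8.98 and 8.30 at day 4 and 5.80, 8.26 and 8.25 in PBS. The other 2 PBS arrays lay level with day 11, and PBS replicate 1 alone lay more than 2 units below them. The fitted change of 0.71 ± 0.61 at day 11 against PBS (limma adjusted p = 0.704) was -0.10 without PBS replicate 1. The change at day 4 was 0.89 ± 0.61 (limma adjusted p = 0.774), and 0.071 without the same array.

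The light chain genes Myl6 and Myl12b and the kinase gene Mylk had several tested probes, which differed in the size and in some cases the sign of their changes. Myl9 had only 1. Myl9, the regulatory light chain whose promoter is printed above, was 9.04, 8.86 and 9.60 at day 11, 9.48, 9.15 and 8.58 at day 4 and 8.97, 9.37 and 8.94 in PBS. The 3 groups overlapped throughout. Its change was 0.07 ± 0.33 at day 11, with a 95% interval of -0.66 to 0.81, and -0.03 ± 0.33 at day 4, with an interval of -0.76 to 0.71 (limma adjusted p = 0.951 and 0.991). Mylk, the kinase that phosphorylates that chain, had -0.01 ± 0.26 at day 11 and 0.10 ± 0.26 at day 4. Its 2 other tested probes gave -0.64 and -0.16 at day 11 and -0.22 and 0.10 at day 4. Myl6, an essential light chain, had 0.17 ± 0.25 and 0.13 ± 0.25 from its highest probe at day 11 and day 4, and its second probe gave 0.92 and 0.61. Myl12b, a further regulatory light chain, had 0.08 ± 0.33 at day 11 and 0.34 ± 0.33 at day 4, and its 2 other probes had 0.52 and 0.61 at day 11 and 0.34 and 0.45 at day 4. The first probe was 9.60 on PBS replicate 1, below 10.50 and 10.59 on the other PBS arrays. Without that array its change was -0.23 at day 11 and 0.021 at day 4.

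Among the crosslinkers, Actn4 encodes alpha-actinin-4, which ties actin filaments into bundles. Its brightest probe read 7.20, 6.68 and 5.93 at day 11, 6.91, 7.15 and 7.03 at day 4 and 8.11, 8.29 and 8.19 in PBS. Every tumour array lay below every PBS array, and 1 day 11 array was not detected. The log2 change was -1.60 ± 0.33 at day 11, with a 95% interval of -2.34 to -0.86 (limma adjusted p = 0.217), and -1.17 ± 0.33 at day 4, with an interval of -1.91 to -0.43 (limma adjusted p = 0.434). The other 2 tested Actn4 probes did not share this difference. One had 0.68 at day 11 and 0.92 at day 4, and the other had -0.30 and 0.16. The mean of the 3 probes changed by -0.40 at day 11 and by -0.03 at day 4. Which transcripts each probe reads was not tested. The related crosslinker Actn1 had 0.22 ± 0.42 at day 11 and 0.38 ± 0.42 at day 4. It was 8.08 on PBS replicate 1, below 9.54 and 9.13 on the other PBS arrays, and without that array the changes were -0.20 and -0.043.

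Flnc encodes filamin C, a filament crosslinker best known from striated muscle. Flnc was 7.83, 7.69 and 8.28 at day 11, 6.63, 5.46 and 5.83 at day 4 and 6.41, 7.26 and 7.53 in PBS. The day 11 arrays lay above all others, and 2 of the 3 day 4 arrays lay below every PBS array. Its log2 change was 1.96 ± 0.40 for day 11 against day 4, with a 95% interval of 1.07 to 2.85 (limma adjusted p = 0.487). It was 0.87 ± 0.40 at day 11 against PBS (limma adjusted p = 0.487) and -1.10 ± 0.40 at day 4 against PBS (limma adjusted p = 0.534). The probe was detected on 1 of 3 day 4 arrays, so the size of the difference from day 4 is uncertain, and its second probe was not detected on any array. Flna, the filamin of most non-muscle cells, had -0.24 ± 0.30 at day 11 and 0.07 ± 0.30 at day 4.

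Among the adhesion proteins, Vcl encodes vinculin, which reinforces the link of integrins to actin under tension. Vcl was 9.29, 8.91 and 9.16 at day 11, 9.24, 9.04 and 9.98 at day 4 and 8.44, 8.89 and 8.77 in PBS. All 6 tumour arrays lay above the PBS arrays, with the lowest day 11 array almost level with the highest PBS array. The log2 change was 0.72 ± 0.31 at day 4, with a 95% interval of 0.02 to 1.42 (limma adjusted p = 0.619), and 0.42 ± 0.31 at day 11 (limma adjusted p = 0.661). Tln1, which encodes talin and activates integrins, had 0.06 ± 0.36 at day 11 and -0.12 ± 0.36 at day 4.

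Zyx and Pxn encode zyxin and paxillin, LIM-domain proteins of focal adhesions, and both stood apart on PBS replicate 1. Zyx was 8.31 on that array against 9.60 and 9.80 on the other PBS arrays, and Pxn was 8.77 against 7.10 and 6.49. Without that array the change against PBS turned sign for Zyx at day 11 and for Pxn at day 4. For Zyx the change at day 11 against PBS was 0.17 ± 0.38 with all arrays and -0.29 without that array. For Pxn the change at day 4 was -0.14 ± 0.54 and 0.51. At the other day each kept its sign, with Zyx at -0.09 and -0.55 at day 4 and Pxn at 0.22 and 0.87 at day 11. Lima1, which stabilizes filaments, had 0.06 ± 0.30 at day 11 and 0.30 ± 0.30 at day 4, and its second probe gave 0.08 and -0.27. Pdlim7, a PDZ and LIM protein of stress fibres, was 5.64, 6.25 and 6.54 at day 11, 7.48, 5.75 and 7.70 at day 4 and 6.18, 6.74 and 6.51 in PBS. It was detected on 1, 2 and 2 arrays of these groups, all of which overlapped, and its change for day 11 against day 4 was -0.83 ± 0.49 (limma adjusted p = 0.825).

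Of the genes of actin turnover, Pfn1 encodes profilin, which feeds actin monomers to growing filaments. Pfn1 was 8.93, 8.79 and 8.56 at day 11, 8.01, 8.90 and 7.68 at day 4 and 7.59, 8.27 and 7.94 in PBS. The day 11 arrays lay above all PBS arrays and day 4 spanned both. The log2 change was 0.83 ± 0.36 at day 11 against PBS, with a 95% interval of 0.04 to 1.62 (limma adjusted p = 0.456), and its second probe gave 0.71. It was 0.26 ± 0.36 at day 4 against PBS (limma adjusted p = 0.901) and 0.57 ± 0.36 for day 11 against day 4 (limma adjusted p = 0.829). Cfl1, which encodes the filament-severing cofilin, had -0.64 ± 0.46 at day 11 and -0.58 ± 0.46 at day 4, with PBS arrays spread from 7.82 to 9.86. Without PBS replicate 1, the highest of them, its changes were -0.19 and -0.13. Without PBS replicate 3, the lowest, they were -1.22 and -1.16. Arpc2, a subunit of the Arp2/3 complex that branches filaments, had 0.02 ± 0.33 and -0.17 ± 0.33.

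Vim and Des encode vimentin, the intermediate filament of mesenchymal cells, and desmin, that of muscle, which FRCs also contain. Vim was 9.57, 10.03 and 10.10 at day 11, 9.42, 9.78 and 9.28 at day 4 and 8.95, 8.91 and 9.21 in PBS. Every tumour array lay above every PBS array. The log2 change was 0.87 ± 0.28 at day 11, with a 95% interval of 0.25 to 1.49 (limma adjusted p = 0.341), and 0.47 ± 0.28 at day 4 (limma adjusted p = 0.721). A second, dimmer Vim probe gave -0.10 at day 11 and 0.14 at day 4. Des was 11.06, 10.69 and 10.78 at day 11, 10.87, 10.90 and 11.14 at day 4 and 10.86, 10.50 and 10.87 in PBS. The groups overlapped, with changes of 0.10 ± 0.26 at day 11 and 0.23 ± 0.26 at day 4 (limma adjusted p = 0.911 and 0.879).

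**Figure D3:**
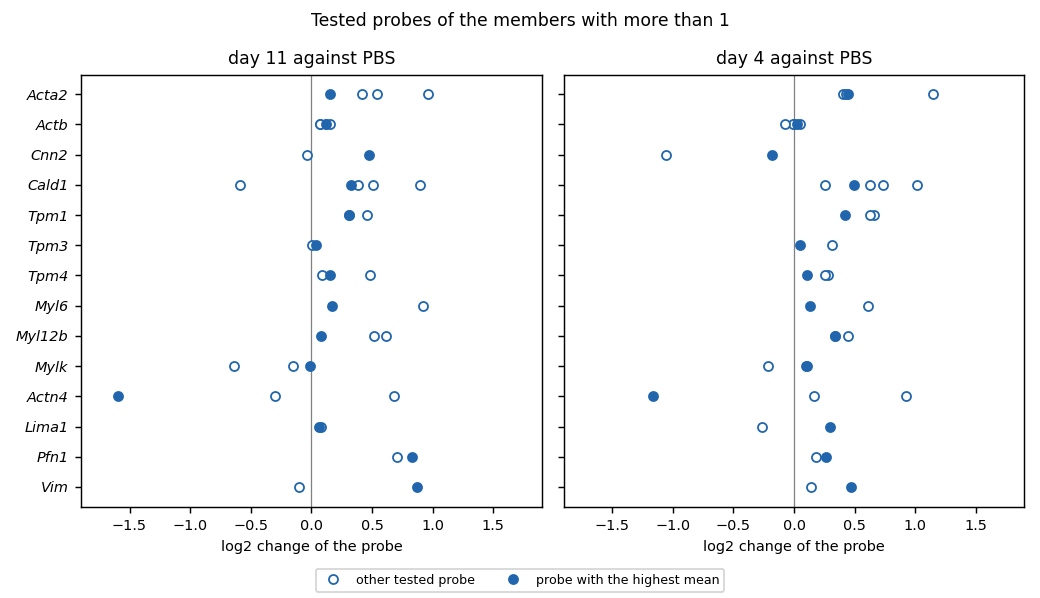
Log2 change (x axis, log2 units) of every tested probe of the 14 members with more than 1, for day 11 against PBS and day 4 against PBS. Filled points are the probes with the highest mean and open points the other probes. The probes of Actb and Tpm1 lie close together, those of Acta2 are all above 0, and those of Actn4 reach -1.60 and 0.68 at day 11, and -1.17 and 0.92 at day 4.

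Of the 14 members with more than 1 tested probe, the probes shared a sign in 10 at day 11 against PBS, 9 of them higher, and in 10 at day 4, also 9 higher. Over all 3323 genes with several tested probes the shares with 1 sign were 52.9% at day 11 and 49.7% at day 4. All probes were higher in 948 of these 3323 genes at day 11 and in 949 at day 4. For day 11 against day 4 the probes shared a sign in 9 of the 14, against 52.8% of all such genes. Within groups, the members' median SD was 0.35 log2 units, against 0.48 over all tested genes. Around the group means the mean correlation between pairs of members of their levels was -0.01 over the 9 arrays, and 0.01 between pairs of all genes.

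Genes that work with the set were taken from 4 further lists, none of whose tested genes passed in either direction in limma. The list of other actin assembly and turnover genes had 24 tested, with 14 higher at day 11 (median 0.15) and 9 at day 4 (-0.10). In it Gsn, the severing protein gelsolin, had -0.59 ± 0.30 at day 11 against PBS (limma adjusted p = 0.520) and Coro1b, a coronin, 0.73 ± 0.38 for day 11 against day 4 (limma adjusted p = 0.804).

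The focal adhesion and LIM list had 24 tested genes, with 15 higher at day 11 (median 0.18) and 17 at day 4 (0.12). The adhesion kinase gene Src had 0.64 ± 0.31 at day 11 and 1.54 ± 0.31 at day 4 against PBS (limma adjusted p = 0.499 and 0.285). Itga5, a chain of the fibronectin receptor, had 0.37 ± 0.38 at day 11 and 1.40 ± 0.38 at day 4 (limma adjusted p = 0.756 and 0.422). Both were lower at day 11 than at day 4 with no overlap, by -0.90 ± 0.31 and -1.03 ± 0.38 (limma adjusted p = 0.700 for each). Itga5 had means of 5.47 in PBS and 5.84 at day 11, near the level of probes detected on no array, such as that of Cnn1 (4.59 to 5.83). The sizes of its changes are therefore uncertain. Of podoplanin and its membrane linkers 7 were tested, with 4 higher at day 11 (median 0.04) and 5 at day 4 (0.16). Pdpn had 0.74 ± 0.26 at day 11 (limma adjusted p = 0.378) and 0.29 ± 0.26 at day 4, and the adhesion receptor gene Cd44 had 0.62 ± 0.43 and 0.91 ± 0.43 (limma adjusted p = 0.633 and 0.649).

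The list of microtubule and other intermediate filament genes had the highest medians of the 4 against PBS. Of its 14 tested genes 12 were higher at day 11 (median 0.63) and 12 at day 4 (0.45), against medians of 0.05 and 0.04 over all genes. At an unadjusted p under 0.05, 5 of 14 were higher at day 11, against 6.18% of all genes, and 4 of 14 at day 4, against 4.72%. Per array, the median over the 14 genes relative to the PBS mean was 0.40, 0.53 and 0.73 at day 11 and 0.57, 0.72 and 0.35 at day 4, against -0.07, 0.02 and 0.06 in PBS. Synm, the desmin partner synemin, had 0.40 ± 0.30 at day 11 and 1.24 ± 0.30 at day 4 (limma adjusted p = 0.653 and 0.339). Stmn1, a tubulin-binding protein high in dividing cells, had 1.05 ± 0.32 and 0.67 ± 0.32 (limma adjusted p = 0.323 and 0.649).

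**Figure D4:**
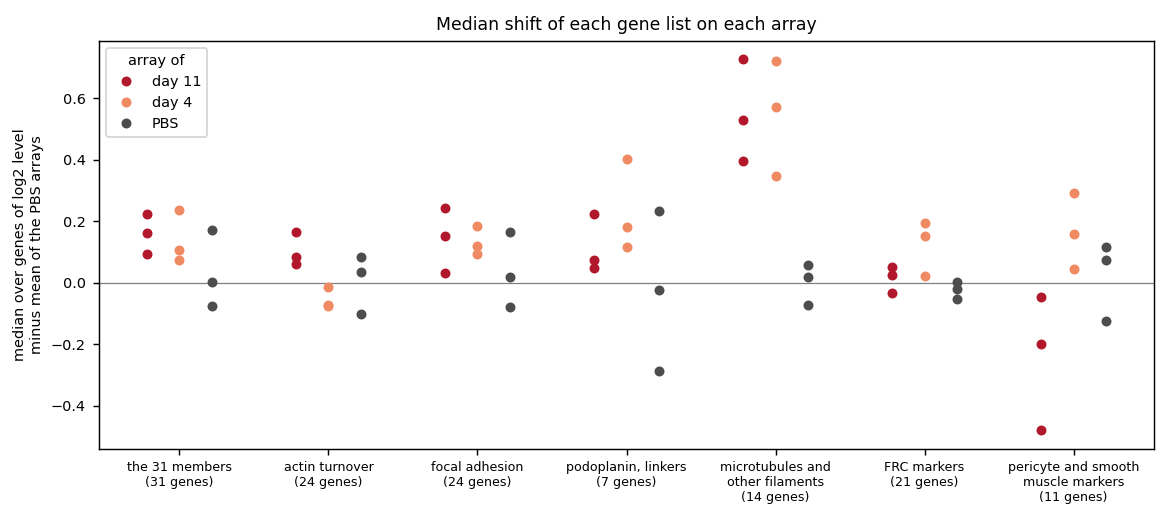
Median over the tested genes of each list of the log2 level on an array minus the mean of the PBS arrays (y axis, log2 units), for the 31 members, 4 related lists and 2 marker lists (x axis). Points are arrays of day 11, day 4 and PBS, and PBS arrays scatter around 0 because they are the zero point. The microtubule list lies at 0.35 to 0.73 on the tumour arrays, while the 31 members lie at 0.10 to 0.22 at day 11 and 0.07 to 0.24 at day 4, and overlap the PBS arrays at -0.07 to 0.17.

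Smooth muscle and pericytes also express several members, and a change in the number of such cells and a change in RNA per cell cannot be told apart in these pooled samples. Of 19 pericyte and smooth muscle markers, 11 were tested, and 5 of the 19 are themselves members. Their summed intensity was 5237 to 6187 at day 11, 5912 to 6895 at day 4 and 5756 to 6713 in PBS, with overlap of all groups. Their median log2 change against PBS was -0.19 at day 11, with 5 of the 11 higher, and 0.14 at day 4, with 6 higher. Mustn1 and Cspg4, the markers with the lowest p, had -0.90 ± 0.31 and -0.68 ± 0.28 at day 11. Mcam went the other way, with 1.01 ± 0.45 at day 11 and 0.93 ± 0.45 at day 4. At day 11 against PBS 1 of the 11 lay above and 4 lay below without overlap, against 10.9% of all genes higher and 7.26% lower. For day 11 against day 4, 10 of the 11 were lower, with a median of -0.31. Of the 31 members, 18 were lower and 13 higher in that comparison, with a median of -0.06. Skeletal muscle markers had 2 of 12 tested, with Acta1, Ckm and Myh4 not tested. Pvalb and Tnni2 had 1.39 ± 0.53 and 0.40 ± 0.85 at day 4. Their median relative to the PBS mean was 2.24, 0.27 and 0.18 on the day 4 arrays and -0.96, -0.20 and 1.16 in PBS. Their summed intensity was low, 121 to 545 at day 4 and 31 to 259 in PBS. Platelet markers had 2 of 8 tested, and Pf4 and Gp9 had 0.88 ± 0.40 and -0.12 ± 0.34 at day 11, and 1.20 ± 0.40 and -0.24 ± 0.34 at day 4. Pf4 did not overlap PBS at either day. Its PBS mean of 4.91 lay at the level of probes detected on no array, such as that of Cnn1 (4.59 to 5.83). The size of its change is therefore uncertain. The part of these cells in the members' values was not tested.

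For the other cell types, none of the named markers passed except Ighg1. Of the FRC markers, Thy1 and Mfap5 had 1.53 ± 0.32 and 1.64 ± 0.53 at day 11 against PBS. Blood endothelial markers had 7 of 11 tested, without Cdh5 and Kdr, and their summed intensity overlapped between groups (462 to 1688 at day 11, 772 to 880 at day 4, 539 to 1922 in PBS). Pecam1 had -0.64 ± 0.38 at day 4 and Tek 0.96 ± 0.60 at day 11. Lymphatic endothelial markers had 1 of 8 tested, Mmrn1, with 0.19 ± 0.37 at day 11. Myeloid markers had 8 of 15 tested and summed to 5905 to 9046 at day 11, 4057 to 5747 at day 4 and 5519 to 7416 in PBS, with Fcer1g at -1.54 ± 0.38 at day 4 against PBS and Tyrobp at 1.40 ± 0.39 for day 11 against day 4. T cell markers had 7 of 10 tested, with Cd3e at -1.62 ± 0.33 at day 4, and summed to 2170 to 2405 at day 11, 744 to 946 at day 4 and 1059 to 1403 in PBS, a sum that includes Thy1. B cell and plasma cell markers had 6 of 10 tested, with Ighg1 at 4.43 ± 0.43 at day 11 against PBS (limma adjusted p = 0.0166). Ighg1 in PBS and Fcer1g at day 4 had means of 4.97, a level also seen for probes detected on no array. The sizes of these 2 changes are therefore uncertain.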

How the data were processed

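Linear intensities of 45281 Illumina probes on 9 arrays were deposited without normalization, per the file headers. A detection p-value stood beside each intensity in the deposited table. The authors' processed values were intensities of the same arrays, with 1 distribution shared by all columns (median 113.1) and the probe ranks of the raw table. Which target distribution and background step lie behind them is unknown. The submitters' processing notes name lumi.

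Raw intensities were background-corrected with the detection p-values, quantile normalized and put on log2 with an offset of 16 by neqc of limma 3.58.1 (R 4.3.3). A probe was tested if detected (p under 0.01) on at least 3 of 9 arrays. Probes were named from the platform annotation, with symbols updated by gene identifier to RefSeq (34807 of 34885 probes with 1 symbol matched). Of the rest 18 had several symbols and 10378 were unnamed here. Groups were compared with lmFit and eBayes over all 9 arrays, with Benjamini-Hochberg adjustment over 16577 probes at 0.05. SEs and 95% intervals come from that fit. The submitters' note describes fits on the groups compared only, which were an alternative here. The number of arrays limits the precision. The pipeline was tested on simulated data.

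The members and lists were chosen with earlier results of these data known. Values on every array were given for Acta2, Tagln, Myl9, Myh11, Cnn1, Des, Myh9, Actb, Vim and Tpm2 and for the 4 members with the lowest p in each comparison. Tagln and Cnn1, which had no tested probe, are given as ranges. From each other list the genes past the threshold were named or, where there were none, the 2 with the lowest p over the comparisons. Mcam was named as well, since it went against the 2 markers named from its list. One further list is not reported here. Same-numbered replicates did not deviate together (correlations from -0.05 to 0.06), so the numbers were not taken as pairs. Cells were pooled per animal, per the design text. That the 3 arrays of a group are separate animals is not stated outright, so p-values measure the spread between these arrays, which may in part be technical.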

Additional observations from a re-analysis of the deposited data

How the results depend on the processing

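No member passed the threshold in any comparison under any of the 20 alternatives, which were 11 other settings and leaving out each of the 9 arrays. The replicate number as a block, which the titles share between groups, also gave 0 members in each comparison, with a lowest adjusted p of 0.327 at day 11 against PBS. At an unadjusted p under 0.05, the block gave 2 members at day 4 against PBS in place of 3. Over all alternatives that count ranged from 2 to 4 at day 11 against PBS, from 1 to 6 (with no filter on dim probes) at day 4 against PBS, and from 0 (probes detected on all arrays) to 4 for day 11 against day 4. The median log2 change of the members at day 11 against PBS was 0.072 with 75th percentile scaling and ranged from 0.069 without day 11 replicate 3 to 0.20 without day 11 replicate 1. At day 4 against PBS it was 0.18 with the mean of a gene's probes and ranged from 0.090 (without day 4 replicate 2) to 0.19 without 1 array. For day 11 against day 4 it was -0.13 with 75th percentile scaling and -0.10 to -0.02 without 1 array. The sign held in every alternative that tested the gene for 16 of 31 members at day 11 against PBS (11 higher, 5 lower), 18 at day 4 (13 higher, 5 lower) and 20 for day 11 against day 4 (9 higher, 11 lower). Vim, Vcl, Flnc and Actn4 were among those that kept it against PBS. The lowest adjusted p of Actn4 at day 11 was 0.131, with a variance prior that follows intensity, and its change ranged from -1.91 without an array to -0.40 with the mean of its probes. The count of all genes past the threshold at day 11 against PBS was 11 with that prior, against 1. The slide could not be used as a block, since the headers used here name none. For Tagln, Cnn1, Lmod1 and Actg2, signal near background limits what could be seen.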
